A study of Mus musculus with 8 samples.

Results

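Thyroid hormone handling was examined in the embryonic cortex through 8 genes, which are Crym, Thra, Thrb, Dio2, Dio3, Slc16a10, Klf9 and Hr. They were found by symbol among the 21165 gene rows of a table of RNA sequencing counts, and each had 1 row. The table holds poly-A RNA of E18.5 cortices from 4 Nuak1 KO and 4 WT mouse embryos. The KO embryos come from a line without the kinase NUAK1 in any tissue, kept on a C57Bl/6JRj background, and the mutation is lethal at birth. Both genotypes came from the same 3 litters by the sample labels, while the design text of the series counts 4 litters. The labels give 2 males among the KO and 1 among the WT embryos. The columns carry only the genotype and a running number, so no library has a known litter or sex, and libraries are named here as in WT library R4. The deposited counts are not normalized. KO libraries held between 11027082 and 27014858 counts and WT libraries between 9643711 and 18940484. Nuak1 itself followed the labels, with at most 20.5 normalized counts in KO and at least 877 in WT.

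Thyroid hormone enters brain cells through membrane transporters, is activated or inactivated there by deiodinases, and acts by binding nuclear receptors that switch genes on or off. Thyroxine is the main circulating form and T3 the form with the higher affinity for the receptors. Mu-crystallin, the product of Crym, binds T3 in the cytosol and is also a ketimine reductase, and in the cortex Crym is known as a gene of deep-layer projection neurons. A lack of thyroid hormone before and after birth disturbs the migration and maturation of cortical neurons.

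Crym was selected on its measured difference between the genotypes and on its level in WT library R4, and the other genes were chosen by their role in hormone handling. The comparison of Crym between KO and WT is therefore given as a description, without a p-value. Normalized counts are counts scaled by TMM, a factor for library composition, to the mean effective library size. The genotypes were compared with the quasi-likelihood test of edgeR on the 12699 genes that passed its filter on low counts, with Benjamini-Hochberg adjustment over all of them. In bulk tissue, fewer cells of a type and less RNA per cell cannot be told apart. Of the 8 genes, 7 passed the filter and Dio3 did not.

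Of the 7 tested members, Crym had the largest fold change and was the lowest in KO relative to WT. Crym is encoded at chr7:127329894-127345625 (minus strand) of NCBIM37, the assembly behind mm9, which all positions here refer to. The KO libraries R1 to R4 held 838, 727, 636 and 717 normalized counts of Crym. The WT libraries R1 to R4 held 1360, 1387, 1180 and 2574. Every KO library lay below every WT library, and WT library R4 lay 1.86-fold above the next highest. The 4 KO libraries averaged 729.5 ± 82.9 and the 4 WT libraries 1625 ± 639 (SD), so KO reached 44.9% of WT. The fitted log2 fold change was -1.15 (standard error 0.21).

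Without WT library R4, the WT mean of Crym was 1309 ± 113 (SD, n = 3), and KO reached 55.7% of it. The log2 fold change then was -0.84, with a standard error of 0.09 in place of 0.21. Without KO library R1 it was -1.22, and without both of these libraries -0.92. With any single library left out it stayed between -1.27 and -0.84. WT library R4 therefore enlarged the difference and also widened its error.

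**Figure D1:**
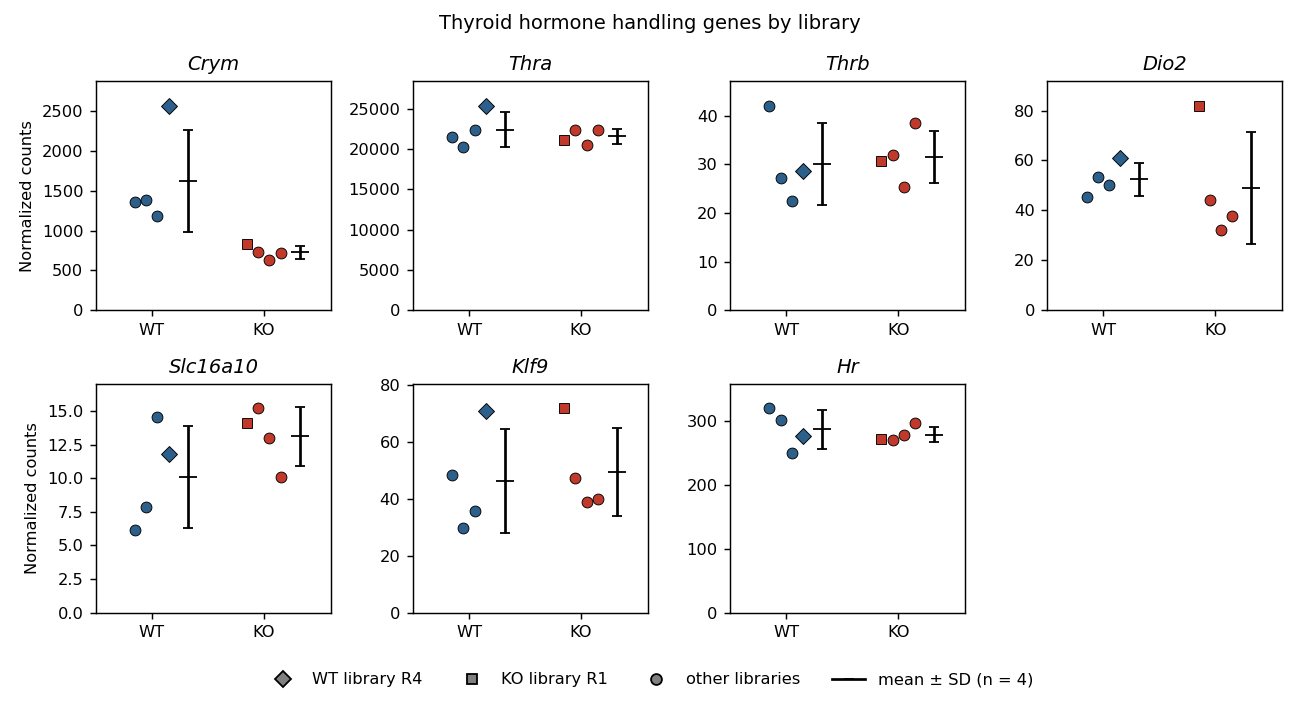
Normalized counts of 7 of the thyroid hormone genes in each library (vertical axis from 0), by genotype; Dio3, with no count, is not shown. Diamonds mark WT library R4, squares KO library R1, circles the other libraries, and bars the mean ± SD of 4 libraries. For Crym the 4 KO libraries sit between 636 and 838, below all WT libraries, and WT library R4 stands alone at 2574.

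By the thresholds of the study, an absolute log2 fold change over 0.25 with an unadjusted p under 0.05, 1 of the 7 tested members was called, and this was Crym. The same thresholds called 4.25% of all genes tested, 1.8% as lower and 2.45% as higher in KO, where 0 of the members were higher. Past an adjusted p of 0.05 there were 0 of 7 members with edgeR, against 0.0709% of all genes, and 1 of 7 had an unadjusted p under 0.05, against 7.69%. DESeq2 called 1 of 7, again Crym, against 0.512% of all genes. Without WT library R4, edgeR called 1 of 7 past an adjusted p of 0.05, against 0.0854% of all genes, and the same 1 of 7 at the thresholds of the study, against 6.57%. By sign alone, 3 of 7 members were higher in KO, against 45.6% of all genes. Since Crym was picked with this contrast in view, these counts describe the choice of genes. The libraries of the genotypes did not overlap for 1 of the 7 members, against 4.49% of all genes.

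The spread of Crym within each genotype is described next. Its values in WT include library R4, on which Crym was selected, so its places among other genes there are no independent result. On the log2 scale its SD was 0.16 over the KO libraries, where the median gene had 0.12. Over the WT libraries it was 0.50, where the median gene had 0.15, and without WT library R4 it was 0.13. Among the 500 genes nearest to Crym in mean level, this put Crym at percentile 92.2 for the SD in KO and 99.4 in WT, and at 82.8 in WT without R4. For the ratio of WT library R4 to the median of the other WT libraries, Crym had 1.89 and ranked 489 of 12699, and 1062 genes were above 1.5. Of the other members, Klf9 had a ratio of 1.99, Slc16a10 1.499, Dio2 1.21, Thra 1.18, Thrb 1.06 and Hr 0.92.

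Marker genes of cell types were read beside Crym, as sums of normalized counts over each list. The deep-layer projection neuron markers included Fezf2, Bcl11b and Tle4, and also Foxp2 and Tbr1. Their whole list summed to between 9455 and 10860 in KO and between 11680 and 11830 in WT libraries R1 to R3. WT library R4, the highest for Crym, had 10070, within the KO range, and 5 of the 9 tested markers were lower there than in any other WT library. The share of all genes that were lowest of WT there was not counted. Tshz2 alone was higher there than in every other WT library, with 1378 normalized counts in WT library R4 and at most 693 in the other WT libraries. Of these 9 markers, 5 were lower and 1 was higher in KO at the thresholds of the study, against 1.8% and 2.45% of all genes. An adjusted p of 0.05 was passed by 0 in edgeR or DESeq2. An unadjusted p under 0.05 was reached by 6 in each, against 7.69% of all genes with edgeR. Their median log2 fold change was -0.27, against -0.01 over all genes tested. Pcp4, a further marker in that list, had no count in any library.

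Upper-layer markers, Cux2 among them, summed to between 24740 and 27150 in KO, between 22360 and 22710 in WT libraries R1 to R3, and 18330 in WT library R4, where 7 of 10 were the lowest of WT. Again no share over all genes was counted for the lowest of WT in that library. Even the marker with the highest ratio in that library, Lhx2, reached only 0.95 times the median of the other WT libraries. The median log2 fold change of these markers was 0.28. At the thresholds of the study 4 of 10 were higher in KO, against 2.45% of all genes. An unadjusted p under 0.05 was reached by 5 of them in either tool, against 7.69% of all genes with edgeR. An adjusted one was reached by 0 in edgeR and by 2 in DESeq2, against 0.512% of all genes in DESeq2. Astroglia and radial glia markers were the highest of WT in library R4 for 8 of 12 genes, against 4402 of all 12699 genes tested. They were led by Aqp4, a water channel of astrocytes, with 123 normalized counts there and at most 38.3 in the other WT libraries. In the same list 2 markers, Pax6 and Hes1, were the lowest of WT there, with 458 and 52.4 normalized counts. The sum over the list was 36050 in that library, between 23250 and 37870 in the other WT libraries and between 26980 and 30880 in KO.

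For hippocampal neuron markers, 5 of 9 were the highest of WT in library R4, against 4402 of all 12699 genes tested. Wfs1 led at 2.34-fold over the median of the others. The sum over the list was 1098 there, at most 894 in the other WT libraries and at most 950 in KO. Interneuron markers summed to 3964 in that library, at most 3600 in the other WT libraries and at most 3219 in KO, with Dlx6 leading at 1.80-fold. Striatal neuron markers did not stand apart in it, with 694 against 646 to 1013 in the other WT libraries and 733 to 1129 in KO. In that list, Six3, Isl1, Drd2, Tac1 and Gpr6 did not pass the filter on low counts. Endothelial markers summed to 3800 in WT library R4, between 3332 and 3760 in the other WT libraries and between 3495 and 5373 in KO, and their leading marker was Ocln at 1.55-fold. The part of these cell types in the level of Crym was not tested.

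The receptors were next compared. Thra and Thrb encode the nuclear receptors TRα and TRβ, and the Thra row does not separate the hormone-binding form from the splice variant that cannot bind T3. Thra was the most abundant member in every library. It held 21100, 22380, 20490 and 22390 normalized counts in KO and 21530, 20310, 22350 and 25390 in WT, in the order R1 to R4. The genotypes overlapped, and the log2 fold change was -0.05 (standard error 0.07, adjusted p = 0.903 from edgeR). Thra is encoded at chr11:98601952-98630320 (plus strand). Its end overlaps the antisense gene Nr1d1 over 850 exonic bases, and Nr1d1 held at most 98.7 normalized counts in any library.

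Thrb is encoded at chr14:18493474-18870602 (plus strand). It had 30.8, 31.9, 25.4 and 38.5 normalized counts in KO and 42.1, 27.2, 22.5 and 28.7 in WT. The lowest and the highest value both belonged to WT libraries, and the log2 fold change was 0.06 (standard error 0.25, adjusted p = 0.974 from edgeR). The raw counts behind it were between 17 and 57 per library.

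Per length of exon, Thra made up between 99.86% and 99.93% of the sum of both receptors over the 8 libraries. As RPKM, the counts scaled to exon length and library size, Thra had 283 ± 12.5 over the KO and 294 ± 28.4 over the WT libraries, and Thrb 0.29 ± 0.05 and 0.28 ± 0.08 (SD, n = 4 each). Crym came next to Thra among the members, with an RPKM of 13 ± 1.48 over the KO and 29 ± 11.4 over the WT libraries (SD, n = 4 each). The order downwards was Hr with a mean of 2.48 over all libraries, Klf9 with 0.89, Dio2 with 0.53, Thrb with 0.28 and Slc16a10 with 0.11. Neighbours in this order were apart in every library except for Klf9 and Dio2, which kept the order in 7 of 8. The ranges of Klf9 and Dio2 overlapped, as did those of Dio2 and Thrb, so only the other neighbours were separated beyond the spread of all libraries. With the longest transcript in place of all exons, the mean RPKM of Thra over all libraries was 543 in place of 289.

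**Figure D2:**
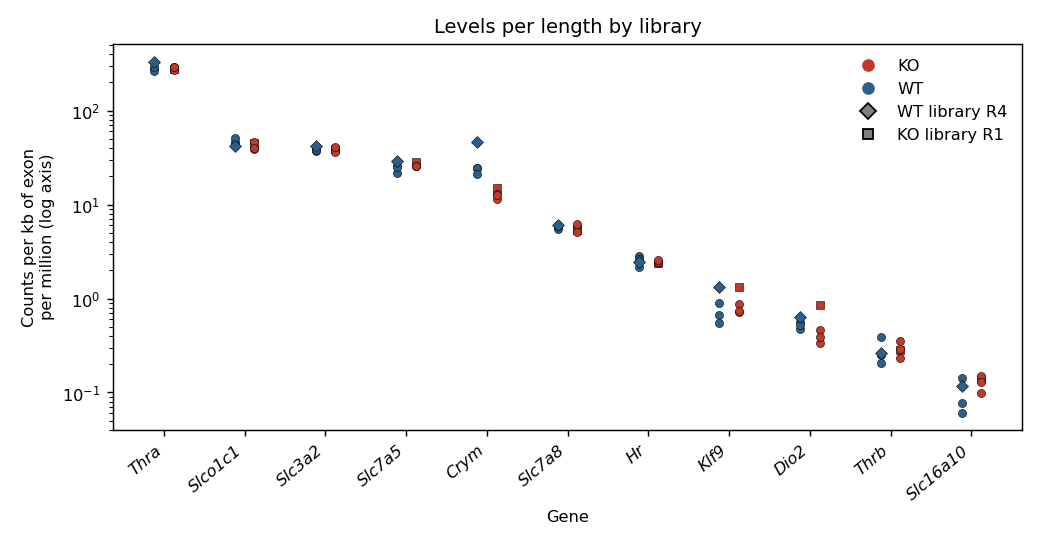
Level of each member with counts, and of 4 other hormone transporter genes, per length as RPKM (log axis), by library. Blue points are WT and red points KO, with WT library R4 as diamonds and KO library R1 as squares. Thra lies at 267 or above in every library and Slc16a10 at 0.15 or below.

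Deiodinases set the amount of active hormone inside the tissue. Dio2 encodes the enzyme that makes T3 from thyroxine, in the brain mainly in astrocytes, and Dio3 the enzyme that inactivates both hormones. Dio2 is encoded at chr12:91962994-91976878 (minus strand), and 238 of its exonic bases are shared with a gene on the other strand, Gm16738. It had 82, 44.1, 32.2 and 37.8 normalized counts in KO and 45.2, 53.5, 50.2 and 60.8 in WT. KO library R1 was the highest of all, and the other KO libraries were below every WT library. Its log2 fold change was -0.13 (standard error 0.28, adjusted p = 0.949 from edgeR). Without KO library R1 it became -0.47 (standard error 0.20, adjusted p = 0.865 from edgeR), and Dio2 then passed the thresholds of the study.

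At the thresholds of the study, all 6 tested meningeal fibroblast markers were higher in KO, against 2.45% of all genes. KO library R1 also stood apart in them. Their sum was 10110 in it and at most 498 in WT. KO library R2 had 453, and KO libraries R3 and R4 also lay above every WT library. An adjusted p of 0.05 was passed by 0 of the 6 in edgeR or DESeq2. In DESeq2, 1 of the 6 had an unadjusted p under 0.05, against 6 in edgeR, where 7.69% of all genes did. DESeq2 ran with its default filter, which gives no p-value to a gene with an extreme library. Genes without a p-value counted as not called, and how many of the 6 had none was not examined. The DESeq2 counts for this list therefore do not show that these markers were tested and not significant. WT library R4 had 350, and its leading marker was Dcn at 2.03-fold, with 35.5 normalized counts. The part of meningeal tissue in the level of Dio2 was not tested.

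Dio3 is encoded at chr12:111517278-111519307 (plus strand) and has a single exon. It had 0 counts in all 8 libraries, which allows up to 3 counts per library, or between 1.86 and 5.07 normalized counts. These limits cover counting error only. The rows of the deiodinase Dio1, of Rtl1 in the same imprinted domain as Dio3, and of Pcp4 were also at 0 throughout, as were 4641 of the 21165 rows. Since Pcp4 is a known marker of cortical neurons, a row at 0 is reported here only as listed at 0. In the imprinted domain, Dlk1 and Begain were tested, with a median log2 fold change of -0.04. At the thresholds of the study 0 of 2 were called, against 4.25% of all genes. In WT library R4, Begain was 1.37 times the median of the other WT libraries.

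Slc16a10 encodes MCT10, a transporter of aromatic amino acids and thyroid hormones, and is encoded at chr10:39753341-39862062 (minus strand). It had 14.1, 15.2, 13 and 10.1 normalized counts in KO and 6.17, 7.89, 14.5 and 11.8 in WT. Its 2 lowest values were WT, but the genotypes overlapped, and the log2 fold change was 0.39 (standard error 0.35, adjusted p = 0.845 from edgeR). The raw counts behind it were between 6 and 21 per library.

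Of the transport list, 5 of 7 genes were tested, with a median log2 fold change of -0.06. Slco1c1, the thyroxine carrier OATP1C1, had 1918 ± 165 normalized counts over the KO and 2078 ± 170 over the WT libraries (SD, n = 4 each). Slc7a5, Slc7a8 and Slc3a2, subunits of amino acid transporters that also carry thyroid hormones, had log2 fold changes of 0.06, -0.06 and -0.02. In WT library R4, Slc7a5 led this list at 1.15 times the median of the other WT libraries. The plasma carrier gene Ttr had at most 19 raw counts and was not tested. Of the metabolism list, Secisbp2, which is needed to build selenium into deiodinases, was tested alone, with a log2 fold change of -0.11.

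**Figure D3:**
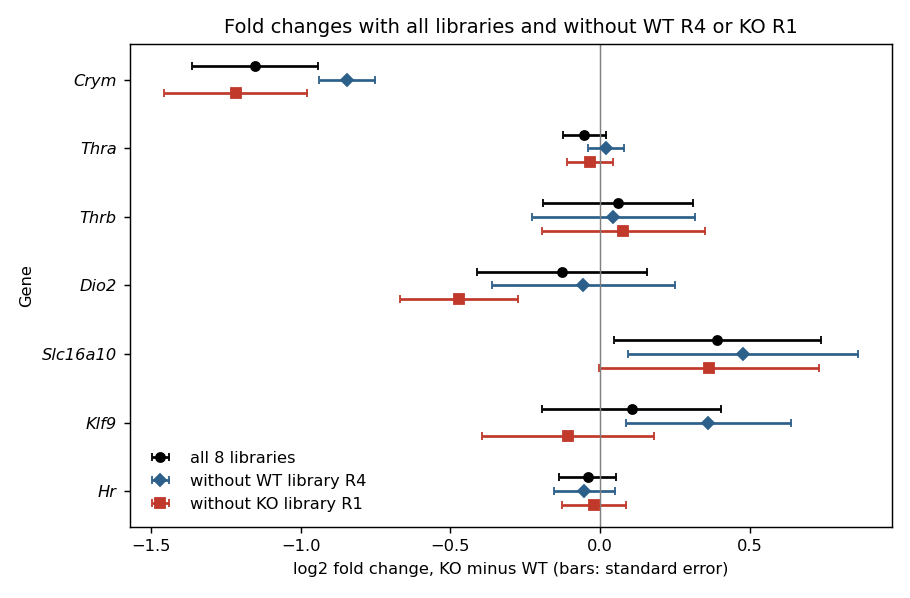
Log2 fold change of 7 members, KO minus WT (horizontal axis; bars are the standard error of the fit), with all 8 libraries (black circles), without WT library R4 (blue diamonds) and without KO library R1 (red squares). Crym lies between -1.22 and -0.84 in these fits, Dio2 moves from -0.13 to -0.47 without KO library R1, and Klf9 changes sign.

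Klf9 and Hr are direct targets of the receptors and respond to T3 in the developing brain. Klf9, a Krüppel-like transcription factor also induced by glucocorticoids, is encoded at chr19:23215716-23241401 (plus strand). It had 71.7, 47.1, 39 and 39.8 normalized counts in KO and 48.3, 29.8, 35.7 and 70.9 in WT. The highest libraries were KO library R1 and WT library R4, 1 of each genotype. The log2 fold change was 0.10 (standard error 0.30, adjusted p = 0.959 from edgeR). It was 0.36 without WT library R4 and -0.11 without KO library R1, so its sign changed without KO library R1, and it also changed without WT library R2.

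Hr encodes Hairless, a corepressor that binds the thyroid hormone receptors, at chr14:70952019-70973355 (plus strand). It had 272, 271, 278 and 298 normalized counts in KO and 321, 302, 250 and 277 in WT. All KO libraries lay within the range of WT. The log2 fold change was -0.04 (standard error 0.10, adjusted p = 0.949 from edgeR), and with any library left out it stayed between -0.10 and 0.02.

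Other genes of receptor action and response were read from lists. All 16 receptor partners and coregulators were tested, such as the retinoid X receptors, the corepressor Ncor1 with Hdac3, and the coactivators Ncoa1 to Ncoa3. At the thresholds of the study, 0 were higher and 0 lower in KO with edgeR. An unadjusted p under 0.05 was found for 1 of 16 with either tool, near the 7.69% of all genes with edgeR. The median log2 fold change of the 16 was -0.07, with 13 of 16 below 0 against 54.4% of all genes. Tbl1xr1, a subunit of the corepressor complex, had a log2 fold change of -0.18 at an unadjusted p under 0.05 (adjusted p = 0.611 from edgeR). Rxrg, a partner of the receptors, held 42.2 normalized counts in WT library R4 and at most 14.8 in any other library.

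Of 14 genes known to respond to thyroid hormone in the brain, 11 were tested. Their median log2 fold change was -0.02, with 5 above and 6 below 0. The list was not sorted by the direction of the response, so this median does not give one. At the thresholds of the study, 1 was lower and 0 were higher in KO, against 1.8% and 2.45% of all genes. Camk4, a calcium/calmodulin-dependent kinase, was the lower one. It had 201, 297, 216 and 218 normalized counts in KO and 340, 255, 349 and 493 in WT, with KO library R2 above WT library R2. Its log2 fold change was -0.62 (standard error 0.19, adjusted p = 0.483 from edgeR), and it was -0.43 without WT library R4, the highest for Camk4. Nrgn, the postsynaptic protein neurogranin, had 1567 normalized counts in WT library R4, at most 540 in the other WT libraries and between 557 and 859 in KO. Its log2 fold change was -0.06 (adjusted p = 0.984 from edgeR).

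Over these lists, 35 of the 44 genes present in the table besides the members were tested. At the thresholds of the study 2 of 35 were called, Camk4 among them, against 4.25% of all genes. Past an adjusted p of 0.05 there were 0 of 35 with edgeR or DESeq2. At an unadjusted p under 0.05 there were 3 of 35 in either tool, against 7.69% of all genes with edgeR. Without KO library R1 and WT library R4, 4 of 36 passed the thresholds of the study, against 833 of all 12848 genes. That fit was chosen after seeing the data, and with a single library left out between 2 and 3 passed.

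**Figure D4:**
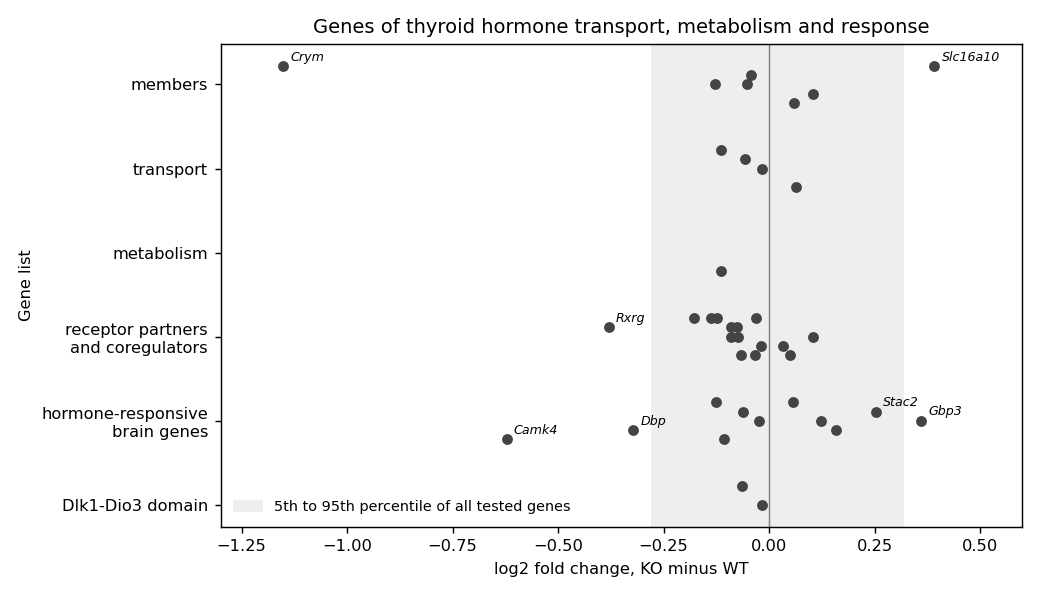
Log2 fold change, KO minus WT, of tested genes (points) of the members and of the other lists of thyroid hormone genes; the grey band spans the 5th to 95th percentile of all tested genes, from -0.28 to 0.32, and vertical scatter within a list has no meaning. Crym, at -1.15, and Camk4, at -0.62, are the points farthest below the band.

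The genes whose pattern over the 8 libraries was most like that of Crym were then listed, by Pearson's correlation of log2 normalized counts over all tested genes. The libraries share their genotype difference and WT library R4, so this is a description. The 8 closest genes were Fam78b with r = 0.965, Pde1a with 0.948, Fbxo6 with 0.948, Crim1 with 0.944, Lactb with 0.938, Emilin2 with 0.938, 6330439K17Rik with 0.932 and Acss2 with 0.929. Pde1a encodes a calmodulin-dependent phosphodiesterase and held 344 to 420 normalized counts in KO, 495 to 588 in WT libraries R1 to R3 and 993 in WT library R4, 1.92 times the median of the others.

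Crim1, a transmembrane protein known from corticospinal neurons, held 851, 827, 878 and 869 normalized counts in KO and 1150, 1143, 1042 and 1265 in WT, without overlap. Its log2 fold change was -0.42 (standard error 0.06, adjusted p = 0.0555 from edgeR). Without WT library R4, Crim1 kept r = 0.944, but it then ranked 9, and none of the 8 genes was among the 8 closest. Fam78b varied far less than Crym, from 407 to 481 normalized counts. Among the members, Thra had r = 0.58 with Crym over 8 libraries and -0.16 without WT library R4, and the other tested members lay between -0.35 and 0.46.

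**Figure D5:**
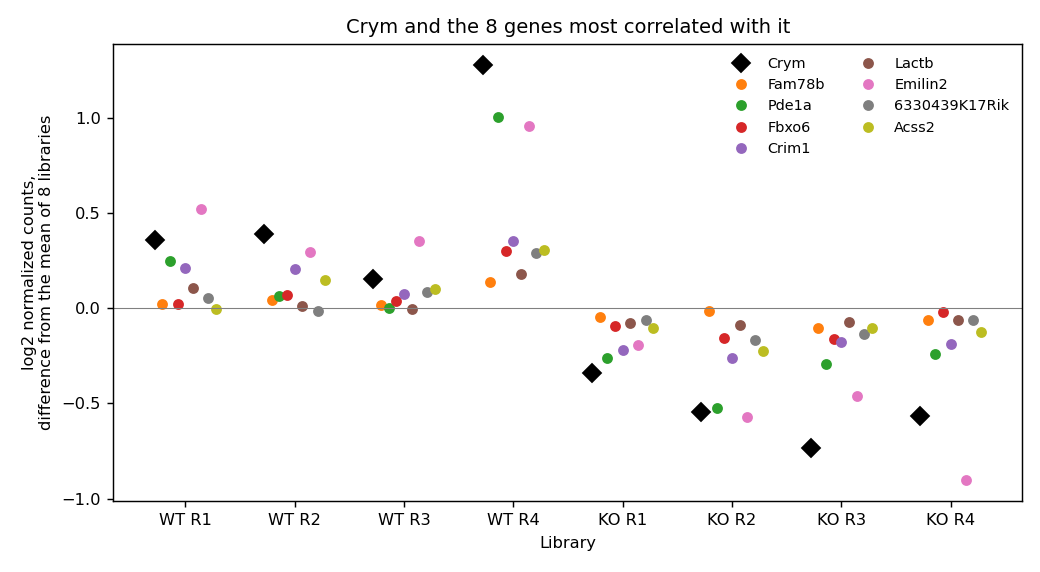
Log2 normalized counts of Crym (black diamonds) and of the 8 genes most correlated with it (coloured circles) in each library, as the difference from the mean of the 8 libraries for that gene. WT library R4 is the highest point of Crym, which has 2574 normalized counts there, and every one of the 8 genes is also highest in it.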

How the data were processed

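Poly-A RNA of 8 cortices was sequenced as 100 bp paired-end reads. Per the labels and the methods of the study, the authors used Prinseq and Cutadapt 1.13 for trimming, TopHat2 2.0.13 with SAMtools 0.1.19 for mapping to mm9, and HTSeq-count for counting reads per gene. The authors deposited these counts without normalization. The annotation and the strand setting of the counting are not given in the sources used here.

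Libraries were grouped by the genotype in the column names. The test was that of edgeR 4.0.16 in R 4.3.3 (filterByExpr, TMM, quasi-likelihood) on the counts of all genes, and DESeq2 1.42.0 was an alternative, both tested on simulated data first. By default DESeq2 gives no p-value to a gene with an extreme library, and such genes counted as not called. Standard errors were obtained from the log2 fold change and its F statistic, whose root is their ratio. For log2 spread and correlation, 0.5 was added to normalized counts. Positions and exon lengths came from an annotation of NCBIM37. Levels per length use the union of exons, which may differ from the gene models of the counting.

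The members and lists were chosen with earlier results of these data known. The lists are those of transport, metabolism, receptor partners, responsive genes, the imprinted domain and the 8 cell types named in the report. Named are all members, Nuak1, list genes past the thresholds of the study, the 8 genes most correlated with Crym and, in each list, the gene with the highest ratio in WT library R4. Others were named for their known role or after their values were seen, and some genes of the lists are not reported here. Other settings were DESeq2's test and size factors, other filters, another length, another correlation and each library left out. The fit without KO library R1 and WT library R4 was chosen after seeing the data.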

Additional observations from a re-analysis of the deposited data

Results flagged for a closer look

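For 39 tested genes named with values here and for each genotype, the highest and lowest of the 4 libraries were examined by Dixon's criterion, the distance to the next library as a share of the whole range. It was met in 11 of 78 such sets. Chance gives about 1 in 20, but 8 of the 11 concern WT library R4 in genes that were chosen with its values in view, so the number cannot be read against chance. Crym, selected on this library, had 2574 normalized counts there, a gap of 0.851 of the range. Fbxo6, named for its correlation with Crym, had 209 there. Of the genes named for their high ratio in WT library R4, Nrgn had 1567, Aqp4 123, Ocln 106, Lrrc23 113, Rsph1 96.3 and Ccdc108 72.6 normalized counts in it.

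In KO library R1, Dcn, a marker of meningeal fibroblasts, had 662 normalized counts and the amino acid transporter gene Slc7a5 had 1669, each above the other KO libraries. Slc7a8 had 370 in WT library R2, below the other WT libraries.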

How the results depend on the processing

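No paired analysis was possible because neither litter nor embryo nor sex is given for a column. The 9 genes past an adjusted p of 0.05 became 65 with DESeq2, 20 without KO library R1 and WT library R4 together, and between 2 and 11 with a library left out, with at most 4 without KO library R3 or R4 or WT library R1, R2 or R3. The 540 genes past the thresholds of the study became 833 without these 2 libraries and between 426 and 847, the latter without WT library R4, with a library left out. Of the members, 1 passed these thresholds, and between 1 and 2 with a library left out, Dio2 being added without KO library R1. Past an adjusted p of 0.05, 0 became 1 with DESeq2 and 1 without both libraries. With a library left out it was between 0 and 1, the 1 without WT library R4. In each case it was Crym, picked with this contrast and that library in view, so these calls are no test of it. The 2 called genes of the other lists became 4 without both libraries and between 2 and 3 with a library left out. Of the 8 genes most like Crym, 1 was kept with Spearman's correlation and 0 without WT library R4, and the SD of Crym in WT fell from 0.50 to 0.13. Why DESeq2 or another correlation moved these counts was not tested.

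Crym kept its direction in all 13 alternatives. The log2 fold changes that reversed were near 0 and not called in either fit. Thra was 0.0191 without WT library R4 and 0.0324 without both libraries, Thrb -0.0657 without KO library R4 and -0.0489 without WT library R3, and Dio2 0.0468 without KO library R3. With a library left out, Thra lay between -0.0966 and 0.0191, Thrb between -0.0657 and 0.277, Dio2 between -0.471 and 0.0468, Klf9 between -0.108 and 0.361, and Hr between -0.0986 and 0.0153. Klf9 was -0.108 without KO library R1 and -0.072 without WT library R2, and Hr 0.0153 without WT library R1. Slc16a10 and Nuak1 have no value with at least 10 counts in every library. Thrb, Dio2, Klf9 and Slc16a10 rest on raw counts of at most 64 per library, and what difference these could show was not tested.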

Other observations

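The genes with the highest ratio of WT library R4 to the other WT libraries were looked up after the values were seen, among genes with a mean of at least 20 normalized counts. They were led by Ccdc67 (17.5-fold over the median of the other WT libraries), Ccdc108 (14.1-fold), Lrrc23 (13.8-fold) and Rsph1 (12.1-fold), of which Lrrc23 and Rsph1 encode parts of the radial spokes of motile cilia. Rsph1 had 96.3 normalized counts in WT library R4, at most 8.22 in the other WT libraries and at most 39.8 in KO. Crym, at 1.89-fold, stood far below these genes.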
